A study of Mus musculus with 157 samples.

Results

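The Myc, Max and Mxd group was read here as 8 genes of the count table, Myc, Max, Mxd1, Mxd3, Mxd4, Mxi1, Mnt and Mlx, each matched by its gene name to exactly 1 row among 19600 genes. All 8 passed the filter on low counts, which left 12755 genes to test. The mRNA came from primary splenic B cells of C57BL/6Babr mice, purified with a kit. Every culture received lipopolysaccharide (LPS, 10 µg/ml), a bacterial mitogen that drives B cells to divide. The LPS group had LPS alone for 48 h. In the LPS+ET group, etoposide was added after 48 h of LPS, for 4 h at 20 µM. Etoposide is a topoisomerase II poison that breaks DNA. In the LPS+ET+KU group, 10 µM KU55933, an inhibitor of the DNA damage kinase ATM, was given after 47 h of LPS and 1 h ahead of the etoposide. No group had KU55933 without etoposide, so the inhibitor was read only on top of the damage. By these hours the etoposide groups were cultured for longer than the LPS group, though a figure legend of the study places etoposide in the last 4 h. If they were, time in culture cannot be told apart from the treatment. Cytoplasmic extracts were spread on sucrose gradients, and fractions 4 to 16 were sequenced from the 3′ ends of their polyadenylated RNA. Fractions 4 to 7 are called monosomes, 8 to 10 light polysomes and 11 to 16 heavy polysomes.

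Myc is a transcription factor that drives growth and cell division and is induced when lymphocytes meet a mitogen. It binds DNA only as a pair with Max, at a short sequence called an E-box. Max also pairs with Mxd1, Mxd3, Mxd4, Mxi1 and Mnt, which recruit Sin3 and histone deacetylases and repress the same kind of site. Mlx is a Max-like protein that pairs with some Mxd proteins, with Mnt and with the glucose-responsive factors Mlxip and Mlxipl.

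The counts of these genes came from named polyadenylation sites, and the last 30 bases before a site show what was read. The site of Myc (chr15:61985391-61990374, plus strand, GRCm38) lay in its 3′ untranslated exon and was the only one the authors selected for that gene. Mxi1 (chr19:53310506-53375810, plus strand) was likewise counted at 1 site, which lay in an untranslated exon. The main site of Mxd3 (chr13:55325168-55329758, minus strand) held 78.8% of its counts. The main site of Mxd4 (chr5:34173887-34187720, minus strand) held 78.9%. The windows are chr15:61990222-61990251, chr19:53373264-53373293, chr13:55325479-55325508 and chr5:34173887-34173916, written 5′ to 3′ on the strand of the gene, from the GENCODE M21 transcripts. Capitals mark the polyadenylation hexamer AATAAA or ATTAAA. These 4 are shown because Myc was lower and Mxi1 higher in cells given etoposide and KU55933, Mxd3 had the variant hexamer, and neither hexamer was found in Mxd4.
Myc: actttAATAAAacgtttataacagttacaa
Mxi1: aaAATAAAaacaaccatatttagcagtgca
Mxd3: cagtattttcATTAAAatcctcttttgtaa
Mxd4: tgtaatataaatacagatttttatacctca

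The other members also had AATAAA in the same window. Max (chr12:76937269-76962248, minus strand) was counted at 3 sites, Mxd1 (chr6:86647044-86669159, minus strand) at 2, Mnt (chr11:74830920-74845725, plus strand) at 1 and Mlx (chr11:101087277-101092207, plus strand) at 2. Sites of 3 members fell inside a gene on the opposite strand: the main site of Mlx inside Psmc3ip, the main site of Mxd4 inside Gm42846 and the minor site of Mxd3 inside Prelid1. Whether the counting used strand is not given in the sources used here.

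The palindrome CACGTG, the E-box that Myc and Max prefer, was searched in RefSeq promoter windows (GRCm38.p6) from 250 bases before to 50 bases after each start. It occurred in 8.1% of 27025 genes with a window and in 4 of the 7 members with one. Myc had no window. The 4 matches are shown with 12 bases on either side, capitals marking the E-box, at chr12:76962234-76962263 (minus strand), chr5:34187912-34187941 (minus), chr11:74830789-74830818 (plus) and chr11:101087238-101087267 (plus).
Max: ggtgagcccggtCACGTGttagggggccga
Mxd4: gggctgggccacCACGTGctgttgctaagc
Mnt: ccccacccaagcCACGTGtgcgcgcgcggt
Mlx: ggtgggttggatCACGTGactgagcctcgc

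Relative to the start, the E-box began at position -3 in Max, -40 in Mlx, -123 in Mnt and -219 in Mxd4. No CACGTG was found in the windows of Mxd1, Mxd3 and Mxi1, which says only that these letters are absent there. A match is a run of letters and not evidence of binding.

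Each treatment had 4 gradients, described by the study as biological replicates, 1 for each of the 4 tags LUL15 to LUL18 in the column names. A tag is called a library pool here, a name chosen for this report. The column names do not say what the tag stands for. The 12 gradients held between 6404957 and 21449781 counts, and the 156 fraction libraries between 14724 and 4170688, with 12 of them under 100000. The 8 members drew between 31 (Mxd3) and 3770 (Max) counts in a gradient. Of the B cell markers 5 were read (Cd79a, Cd79b, Ms4a1, Cd22 and Pax5), none was at 0, and their summed level in counts per 1000000 (CPM) was 1280 to 1410 in LPS gradients, 755 to 828 with etoposide and 847 to 1240 with etoposide and KU55933. The T cell list (6 of 8 genes read) summed to 83.5 to 377, the myeloid list (8 of 8) to 28.3 to 163 and the erythroid list (4 of 6) to 23.2 to 177 over all gradients. Of these, 3 T cell, 6 myeloid and 1 erythroid marker had enough counts to be tested and none was called in any comparison, and 1 of 5 B cell markers was lower in each damaged group than in LPS. The part of these shifts in the results was not tested. In pooled cells, fewer cells that make an mRNA and less of it per cell cannot be told apart.

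The first question was the relative level of ribosome-associated mRNA of each member in the 3 treatments. Absolute amounts were not read, and the study reports that etoposide lowered the assembly of polysomes globally. Total mRNA was not set beside these levels, so a lower level is not read as less translation. The level of a member was the sum of its raw counts over fractions 4 to 16 of a gradient, in CPM on library sizes scaled by TMM. Fractions with larger libraries therefore weigh more in it, and an alternative gave each fraction equal weight. Differences were tested with edgeR's quasi-likelihood test over all genes and a gene was called where its p, adjusted by Benjamini-Hochberg, was under 0.01. The 8 members were chosen with earlier results of these data known, so shares of members called are a description and not a test of the group. In LPS+ET against LPS, 4 of 8 members were called, against 12.7% of all genes tested. With equal weight per fraction, 1 member (Mxd1) and 1085 of 12755 genes were called. Mxd1 was higher, a direction called in 7.88% of genes. Myc, Max and Mxd3 were lower, a direction called in 4.81%. LPS+ET+KU against LPS called 4 members, against 10.7% of all genes. There Mxd1 and Mxi1 were higher and Myc and Mxd3 lower (6.25% and 4.42% of genes in those directions). For LPS+ET+KU against LPS+ET, edgeR called 0 of 8 members and 0.455% of all genes. Before adjustment, Mxi1 and Mlx were under 0.05, as were 2031 of all 12755 genes, and Mxi1 was called by DESeq2, which called 413 genes. These comparisons share gradients, so their results for a gene are not independent of each other.

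**Figure D1:**
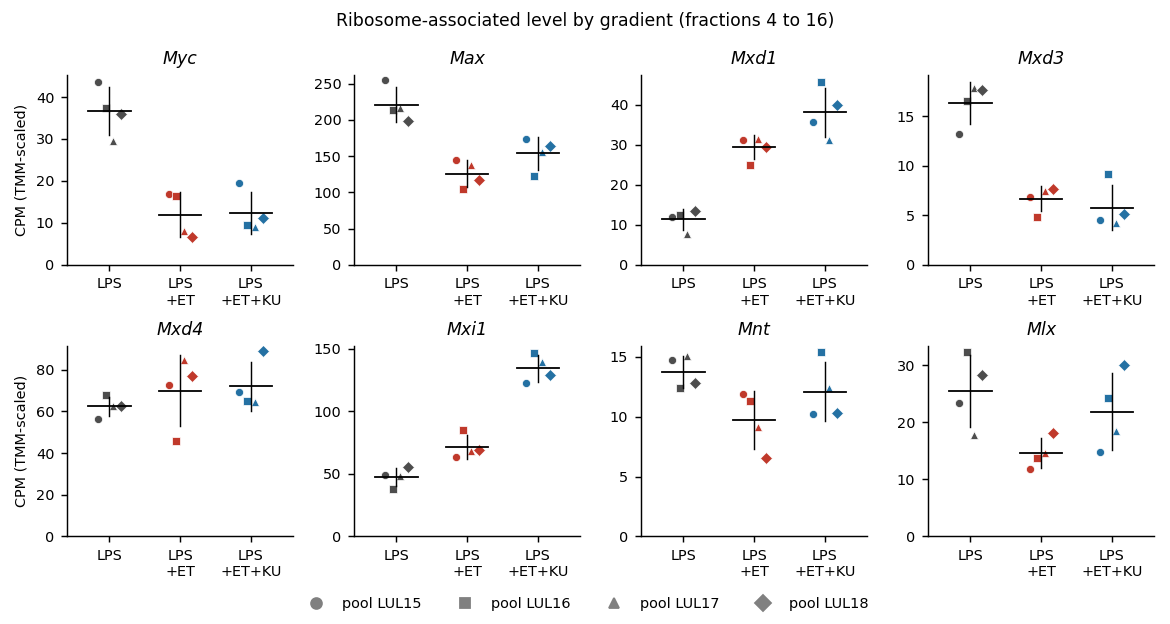
Ribosome-associated level of the 8 members in CPM (vertical axis, from 0, a separate scale for each gene) in LPS, LPS+ET and LPS+ET+KU; each symbol is 1 gradient with its shape giving the library pool, and lines are the mean and SD of 4 gradients. Myc lay at 29.6 to 43.5 CPM in LPS and at 6.67 to 19.6 CPM in both damaged groups, while Mxi1 lay at 37.8 to 55.2 CPM in LPS and at 123 to 146 CPM with KU55933.

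Myc mRNA was lower on ribosomes in both etoposide-treated groups. In LPS, Myc was at 43.5, 37.5, 29.6 and 35.9 CPM in pools LUL15 to LUL18. With etoposide it was at 16.9, 16.4, 7.95 and 6.67 CPM, and with KU55933 added at 19.6, 9.58, 9.07 and 11.2 CPM. Every LPS gradient was above every gradient with etoposide, and the etoposide groups with and without KU55933 overlapped. Myc averaged 36.6 ± 5.74 CPM with LPS alone, 12.0 ± 5.42 with etoposide and 12.4 ± 4.92 with etoposide and KU55933 (SD, n = 4 gradients each). In LPS+ET, Myc was 3.07-fold lower than in LPS (log2 fold change -1.62 ± 0.33 SE, edgeR adjusted p = 0.003). With KU55933 added it was 2.98-fold lower than in LPS (-1.57 ± 0.33, edgeR adjusted p = 0.00424). Between the etoposide groups the log2 difference was 0.05 ± 0.33 (edgeR adjusted p = 0.963), a value whose sign turned when single gradients were left out. The first of these calls was missed without LPS gradient LUL15 (edgeR adjusted p = 0.0106), without LPS+ET gradient LUL17 (0.0109) or LUL18 (0.0103), and when each fraction was given equal weight (limma adjusted p = 0.0486). The call of LPS+ET+KU against LPS was missed without LPS gradients LUL15 (edgeR adjusted p = 0.0156), LUL16 (0.0121) or LUL18 (0.0117), without LPS+ET+KU gradients LUL17 (0.0141) or LUL18 (0.0162), and with equal weights (limma adjusted p = 0.0327).

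Max, the partner that Myc needs to bind DNA, was also lower after etoposide, by less. Max was at 255, 214, 216 and 199 CPM in the LPS gradients of pools LUL15 to LUL18. With etoposide it was at 145, 104.08, 137 and 118 CPM, and with etoposide and KU55933 at 174, 122, 155 and 164 CPM. Neither etoposide group reached the lowest LPS gradient, and the etoposide groups overlapped each other. The level in LPS+ET was 1.75-fold below LPS (log2 fold change -0.81 ± 0.17, edgeR adjusted p = 0.00381). The call was missed without LPS gradient LUL15 (edgeR adjusted p = 0.0143), without LPS+ET gradient LUL18 (0.0159) and with equal weights (limma adjusted p = 0.0135). For LPS+ET+KU against LPS the log2 difference was -0.52 ± 0.17 (edgeR adjusted p = 0.0406), which passed with the library pool as a replicate block (0.00414) and in DESeq2 (0.00815). LPS+ET+KU against LPS+ET gave 0.29 ± 0.17 (edgeR adjusted p = 0.448).

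Of the Mxd repressors, Mxd1 (Mad1), known for its rise as cells leave the cell cycle and differentiate, moved in the direction opposite to Myc. Its level in LPS was 11.9, 12.5, 7.59 and 13.4 CPM in pools LUL15 to LUL18. With etoposide the level was 31.3, 25.04, 31.6 and 29.5 CPM. With KU55933 added it was 35.8, 45.7, 31.2 and 39.9 CPM. The LPS gradients lay below all others, and the highest LPS+ET gradient passed the lowest LPS+ET+KU gradient. Mxd1 was 2.58-fold higher in LPS+ET than in LPS (log2 fold change 1.37 ± 0.20, edgeR adjusted p = 0.000259) and 3.35-fold higher in LPS+ET+KU than in LPS (1.75 ± 0.20, edgeR adjusted p = 7.05e-05). Both calls held in every alternative run. LPS+ET+KU exceeded LPS+ET by 0.38 ± 0.19 on the log2 scale (edgeR adjusted p = 0.361).

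Mxd3 (Mad3), a repressor of the same family that is known for expression in dividing cells during S phase, fell where Mxd1 rose. It was at 13.2, 16.5, 17.9 and 17.6 CPM in LPS. After etoposide it was at 6.87, 4.85, 7.41 and 7.64 CPM, and after KU55933 and etoposide at 4.53, 9.17, 4.24 and 5.15 CPM. All 8 gradients with etoposide were under the lowest LPS gradient. Mxd3 was 2.42-fold lower in LPS+ET (log2 fold change -1.28 ± 0.26, edgeR adjusted p = 0.0028) and 2.80-fold lower in LPS+ET+KU (-1.49 ± 0.26, edgeR adjusted p = 0.00141), each against LPS. The first call was missed without LPS gradient LUL18 (edgeR adjusted p = 0.0101) and with equal weights (limma adjusted p = 0.0256). The second held in every alternative run. Its counts were the lowest of the group, 31 to 291 in a gradient.

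Mxi1 (Mad2), a further Max-binding repressor, separated all 3 treatments. It was at 49.1, 37.8, 48.0 and 55.2 CPM in LPS. It was at 63.6, 85.0, 68.0 and 68.9 CPM in LPS+ET and at 123, 146, 140 and 129 CPM in LPS+ET+KU. The 3 groups did not overlap, with LPS lowest and LPS+ET+KU highest. Mxi1 was 2.83-fold higher in LPS+ET+KU than in LPS (log2 fold change 1.499 ± 0.16, edgeR adjusted p = 5.58e-05), a call that held in every alternative run. With KU55933 it was 1.88-fold above LPS+ET (0.91 ± 0.16), which missed the threshold (edgeR adjusted p = 0.0133). That difference passed with the replicate block (edgeR adjusted p = 0.00154), in DESeq2 (adjusted p = 2.68e-06) and without LPS+ET gradient LUL16 (edgeR adjusted p = 0.00538), and its adjusted p ranged up to 0.0629 over the alternatives. LPS+ET against LPS gave 0.59 ± 0.16 (edgeR adjusted p = 0.0187), and passed with the block (0.00721) and in DESeq2 (0.00215). Groups that did not overlap were found in 6 members for LPS+ET against LPS (27.5% of all genes), of which Mxd1 and Mxi1 were higher (14.8%) and Myc, Max, Mxd3 and Mnt lower (12.6%). They were found in 5 members for LPS+ET+KU against LPS (26.4%), with Mxd1 and Mxi1 higher (14.4%) and Myc, Max and Mxd3 lower (12.0%). Between the etoposide groups, 8.57% of genes did not overlap (3.83% higher and 4.74% lower with KU55933), and Mxi1 was the only such member.

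For Mxd4 (Mad4) and Mnt, no difference in level was called. Mxd4 ranged over 56.4 to 67.9 CPM with LPS alone, 45.5 to 84.3 with etoposide and 64.6 to 89.0 with etoposide and KU55933, and the 3 groups overlapped. Its log2 difference from LPS was 0.17 ± 0.19 with etoposide (edgeR adjusted p = 0.598) and 0.21 ± 0.19 with KU55933 added (0.47). Mnt, the broadly expressed antagonist of Myc, was at 12.4 to 15.1 CPM with LPS alone, 6.59 to 11.9 with etoposide and 10.3 to 15.4 with etoposide and KU55933. Its LPS and LPS+ET gradients did not overlap, but the log2 difference of -0.50 ± 0.21 did not pass (edgeR adjusted p = 0.109). The level with KU55933 overlapped both (0.32 ± 0.21 against LPS+ET, edgeR adjusted p = 0.507).

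Mlx, which binds Mxd and Mnt proteins in place of Max, was at 17.8 to 32.3 CPM with LPS alone, 11.8 to 18.1 with etoposide and 14.8 to 30.1 with etoposide and KU55933. LPS and LPS+ET met at one end, where the lowest LPS gradient lay under the highest LPS+ET gradient. The log2 difference was -0.81 ± 0.25 (edgeR adjusted p = 0.0314) and passed with the replicate block (0.0017). LPS+ET+KU differed from LPS+ET by 0.59 ± 0.25 (edgeR adjusted p = 0.256).

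**Figure D2:**
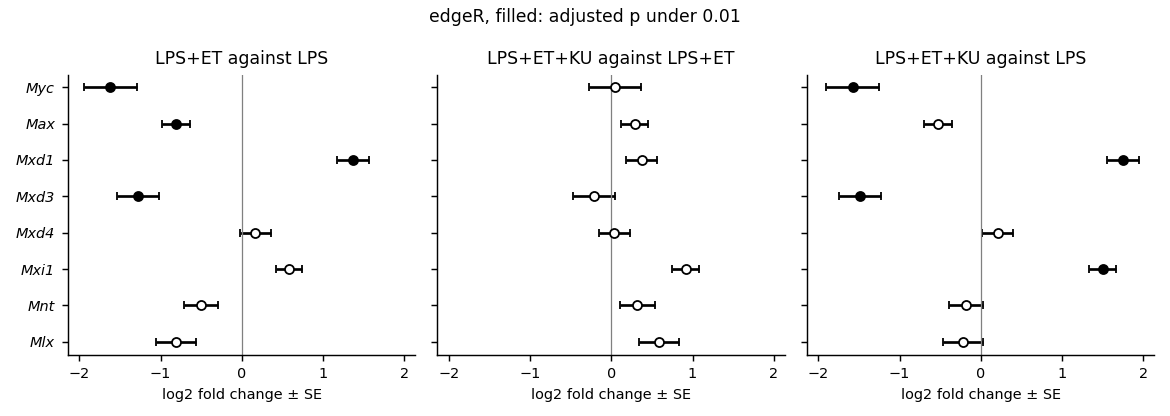
Log2 fold changes in ribosome-associated level (horizontal axis) of the 8 members in the 3 comparisons, with SE; filled points have an edgeR adjusted p under 0.01. Myc, Max and Mxd3 lie left of 0 and Mxd1 right of 0 in LPS+ET against LPS, no point is filled in LPS+ET+KU against LPS+ET, and Mxi1 has the largest shift there at 0.91.

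The balance between Myc and the other members was described as a ratio of CPM within a gradient, with no test, since the same counts were tested above. Each mRNA gives 1 end, so CPM carries no length term, but the size of a ratio depends on which sites were counted and only its change between treatments is read. Myc stood at 16.6 ± 1.96 per 100 Max with LPS alone (SD, n = 4), at 9.72 ± 4.91 with etoposide and at 7.95 ± 2.36 with etoposide and KU55933. The ranges of LPS (13.7 to 18.03) and LPS+ET (5.68 to 15.8) overlapped. Against the sum of Mxd1, Mxd3, Mxd4, Mxi1 and Mnt, Myc stood at 24.3 ± 4.47 per 100 with LPS alone, 6.53 ± 3.23 with etoposide and 4.79 ± 2.22 with KU55933 added. Here the LPS range of 19.6 to 29.9 was apart from 3.52 to 9.57 with etoposide and 3.402 to 8.09 with KU55933 added. Mxi1 stood at 21.7 ± 4.45 per 100 Max with LPS alone, 58.4 ± 16.6 with etoposide and 89.8 ± 21.7 with KU55933 added. Mxd1 stood at 5.19 ± 1.41, 23.4 ± 1.502 and 25.6 ± 8.12 per 100 Max in the same order.

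The next question was in which fractions the levels differed. In monosomes, LPS+ET against LPS called Mxd1 and Mlx (2 of 8 members, 9.52% of all genes). Mxd1 was higher there (log2 fold change 1.52 ± 0.30, edgeR adjusted p = 0.00256) and Mlx lower (-1.23 ± 0.29, edgeR adjusted p = 0.00835). In light polysomes Mxd1 and Mxi1 were higher and Myc and Max lower (4 of 8, 10.6% of all genes). Heavy polysomes had 1 call, of Mxd1 (1 of 8, 9.69% of all genes, 1.29 ± 0.28, edgeR adjusted p = 0.00478). This call held in 1 of 8 fits that left out a gradient, the one without LPS+ET gradient LUL16 (edgeR adjusted p up to 0.0193 in the others), and the replicate block called 4 members in this class. How many of all genes the block called by class is not given here. Myc had a mean of 23.8 ± 5.88 CPM in LPS monosomes and 14.4 ± 7.56 in LPS+ET monosomes, with ranges that overlapped (edgeR adjusted p = 0.233). In light polysomes the means of Myc were 25.9 ± 6.64 and 7.66 ± 3.31 CPM (log2 fold change -1.75, edgeR adjusted p = 0.00299). In heavy polysomes they were 45.5 ± 5.33 and 16.3 ± 11.0 CPM (-1.55, edgeR adjusted p = 0.0139). The last value passed without LPS+ET gradient LUL16 (0.00133), whose heavy fractions 11, 12, 15 and 16 held 54686, 33476, 80915 and 63879 counts, and with the replicate block (0.000278).

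With KU55933, Mxi1 was the only member called against LPS+ET in any class, in heavy polysomes (1 of 8, 0.572% of all genes). Mxi1 there rose from 65.6 ± 5.97 to 143 ± 14.3 CPM, and the ranges of 59.5 to 73.8 and 128 to 162 CPM did not overlap. The log2 fold change was 1.12, with an edgeR adjusted p of 0.00964. The call was missed in 7 of 8 fits that left out 1 gradient, where adjusted p reached 0.0414. Mxi1 differed by 0.83 in monosomes (edgeR adjusted p = 0.0769) and by 0.70 in light polysomes (0.0744), and both passed with the replicate block (0.00249 and 0.00802). edgeR called 0 of 8 members in these 2 classes (0.213% and 0.292% of all genes), where 3 and 1 had an unadjusted p under 0.05. Over all genes, 1204 of 8932 in monosomes and 1515 of 9922 in light polysomes were under 0.05. Against LPS, LPS+ET+KU called Mxd1 and Mxi1 in monosomes (2 of 8, 5.96% of all genes) and Mxd1, Mxi1 and Myc in light polysomes (3 of 8, 7.13%). In heavy polysomes it called Mxd1, Mxi1, Mxd3 and Myc (4 of 8, 7.95%). Of the 17 calls by class, 6 held with each gradient left out in turn. The lower Myc in light polysomes of LPS+ET was called in 4 of 8 such fits (edgeR adjusted p up to 0.0132), and each of its LPS+ET+KU calls in 1 of 8 (up to 0.0328). The 6 were Mxd1 in light polysomes in both comparisons with LPS, Mxd1 in heavy polysomes with KU55933, and Mxi1 in all 3 classes in LPS+ET+KU against LPS.

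The position of each mRNA along the gradient, apart from its amount, was described by scaling each fraction library to CPM and taking the percent of a gradient's summed signal in each fraction. Myc mRNA in LPS had its highest mean in fraction 14 (12.8 ± 4.22%). Of its LPS signal, 58.6 ± 5.44% lay in heavy polysomes (median of 8000 genes 55.2%), 16.9 ± 2.66% in light polysomes and 24.6 ± 7.30% in monosomes (SD, n = 4). By gradient its heavy share was 54.2, 57.1, 56.4 and 66.5% with LPS alone, 54.8, 69.4, 51.3 and 46.6% with etoposide, and 49.3, 66.9, 55.3 and 48.5% with etoposide and KU55933. The 3 groups overlapped. In LPS+ET the highest mean of Myc was in fraction 4 (11.8 ± 9.07%), where the libraries of LUL17 and LUL18 held 32104 and 74715 counts. Myc had 76 to 216 counts in a whole LPS+ET gradient. The SD of Myc in fraction 12 of LPS+ET was 14.9 percentage points around a mean of 11.4%, and 1 library there held 33476 counts.

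**Figure D3:**
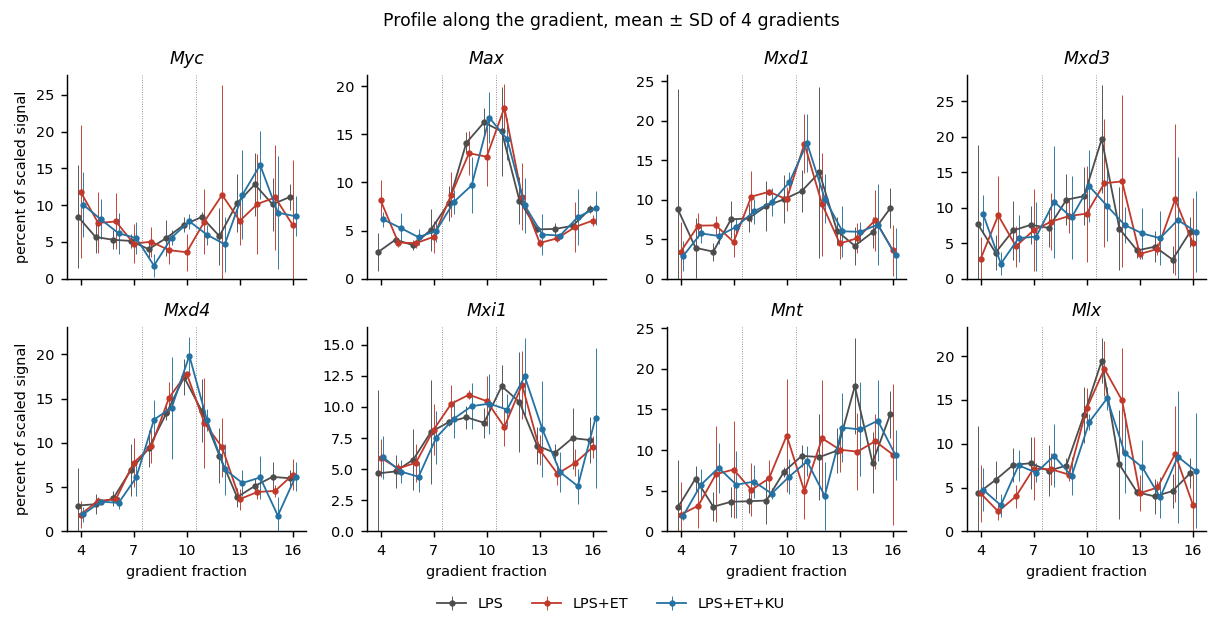
Percent of a gene's scaled signal (vertical axis, separate scale for each gene) in gradient fractions 4 to 16 (horizontal axis), mean and SD of 4 gradients in LPS, LPS+ET and LPS+ET+KU; dotted lines divide monosomes, light and heavy polysomes. Max, Mxd4 and Mlx peak at fraction 10 or 11 in all 3 treatments, and Myc and Mnt have their LPS maximum at fraction 14.

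The other members had different profiles in LPS. Mnt had 69.1 ± 7.11% of its signal in heavy polysomes, above 81.3% of the 8000 genes with enough counts, whose median was 55.2%. Myc was above 57.6% of them. The remaining 6 members lay under the median, between 43.3% (Mxd4) and 50.1% (Mxi1). Max peaked in fraction 10 (16.2%), Mxd4 in fraction 10 (17.4%), Mxd3 in fraction 11 (19.7%) and Mlx in fraction 11 (19.5%), around the border of light and heavy polysomes. Mxi1 had the lowest maximum of the 8, 11.7% in fraction 11. A longer reading frame holds more ribosomes, so these positions were not compared as translation between genes.

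Heavy shares were then compared between treatments with limma on their logit, after 0.5 counts were added to each fraction. No member was called in LPS+ET against LPS (0.15% of all genes called), in LPS+ET+KU against LPS+ET (0.0%) or in LPS+ET+KU against LPS (1.41%). Mlx had an unadjusted p under 0.05 in the first of these (0.035), as had 1736 of 8000 genes, and no other member had in any. Mnt had a mean heavy share of 69.1% with LPS alone, 56.8 ± 5.76% with etoposide and 61.3 ± 6.47% with KU55933 added. Its logit difference of LPS+ET from LPS was -0.27 ± 0.17 (limma adjusted p = 0.375). It was -0.52 when 0.5 CPM were added after scaling instead (limma adjusted p = 0.129). The percents in the text carry no added counts, so a percent and its tested logit can differ in size or sign, as for Mxd1, whose mean share went from 49.5 to 47.1% while its logit difference was 0.13 ± 0.19 (limma adjusted p = 0.728). For Myc the difference was -0.08 ± 0.23 in LPS+ET against LPS (limma adjusted p = 0.872) and -0.02 ± 0.23 in LPS+ET+KU against LPS (0.974). A change in the profile over all 13 fractions was tested as the interaction of treatment and fraction with edgeR on single libraries. It called 0 of 8 members in each comparison (1.37%, 1.05% and 3.29% of all genes, in the order above), and none had an unadjusted p under 0.05. The lowest adjusted p was 0.313. This fit took the 13 libraries of a gradient as independent of each other. A fit with a term for each gradient changed no call of a member. For these counts, a change of profile was not detectable beyond the spread between gradients or their libraries, which does not show that there was none.

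**Figure D4:**
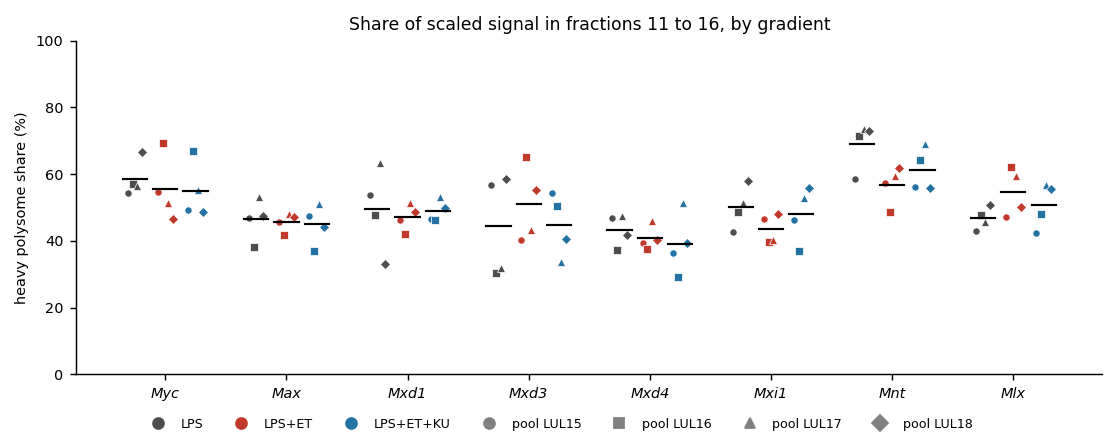
Percent of scaled signal in fractions 11 to 16 (vertical axis, 0 to 100) for each member, 1 symbol per gradient, colour for treatment and shape for library pool, with a line at the mean of 4. The 3 treatments overlap in each gene, and in Mnt the LPS+ET gradients overlap LPS only through the LPS gradient at 58.5%.

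Genes around the network were read from 4 lists chosen from general knowledge and counted in the same test. Of the other network genes, Mycl, Mga and Mlxip could be tested. Mlxip (MondoA), the partner of Mlx, was lower in LPS+ET than in LPS (14.3 ± 5.02 against 38.03 ± 5.89 CPM, log2 fold change -1.40 ± 0.24, edgeR adjusted p = 0.00103) and in LPS+ET+KU than in LPS (-1.09 ± 0.24, edgeR adjusted p = 0.00586). Mycl was higher in LPS+ET+KU than in LPS (2.17 ± 0.37, edgeR adjusted p = 0.00122) and was named after its value was seen. With equal weight per fraction, neither Mlxip nor Mycl was called in LPS+ET+KU against LPS. Of all genes, the main test called 12.7% in LPS+ET against LPS and 10.7% in LPS+ET+KU against LPS. Mga, which joins Max to another DNA-binding domain, was not called.

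Of 45 genes known to be activated by Myc, 44 were tested. In LPS+ET against LPS, 36 of them were lower and 8 higher, with a median log2 fold change of -0.38 against 0.03 for all genes tested. The test called 3 of 44, 2 lower and 1 higher, against 12.7% of all genes (4.81% lower and 7.88% higher). Wdr43, a ribosome biogenesis factor, was at 125 ± 8.90 CPM in LPS+ET and 253 ± 14.4 in LPS (log2 fold change -1.02 ± 0.15, edgeR adjusted p = 0.000299). Eif4e, which binds the mRNA cap, was at 45.4 ± 7.48 and 81.8 ± 14.3 CPM (-0.85 ± 0.18, edgeR adjusted p = 0.00419). The count of 3 dropped to 1 without LPS gradients LUL16 or LUL18 or LPS+ET gradients LUL17 or LUL18. Tert, the catalytic subunit of telomerase, went the other way, from 2.26 ± 0.59 CPM in LPS to 5.73 ± 0.66 in LPS+ET (1.33 ± 0.27, edgeR adjusted p = 0.00329). LPS+ET+KU against LPS had 39 of 44 targets lower and 6 called, all lower (10.7% of all genes called, 4.42% lower), with a median of -0.62 against 0.09 for all genes. Between the etoposide groups the median was -0.27 against 0.04, 36 were lower and edgeR called 0 (0.455% of all genes). There 8 of 44 had an unadjusted p under 0.05, against 2031 of all 12755 genes. DESeq2 called 1 target there, and 413 of all genes. With the replicate block 16, 5 and 22 targets were called in LPS+ET against LPS, LPS+ET+KU against LPS+ET and LPS+ET+KU against LPS. Over all 12755 genes the block called 3403, 811 and 3589 in the same order. The promoter windows of 12 of 37 targets with one held CACGTG (32.4%).

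Of 26 genes that act on Myc mRNA or protein, 22 were tested, with a median of -0.38 in LPS+ET against LPS (0.03 over all genes). Of the 22, 2 were called, against 12.7% of all genes, and 7 with the replicate block, against 3403 of 12755 genes. The 2 were Aurka, a mitotic kinase known to stabilise Myc family proteins, and Hnrnpd (Auf1), which binds AU-rich elements, both lower. Aurka went from 191 ± 25.4 CPM in LPS to 61.9 ± 12.5 in LPS+ET (log2 fold change -1.62 ± 0.29, edgeR adjusted p = 0.00127). Hnrnpd went from 448 ± 76.6 to 182 ± 28.7 CPM (-1.30 ± 0.19, edgeR adjusted p = 0.000262). With KU55933 both were again lower than in LPS (-2.01 and -1.54, edgeR adjusted p = 0.000456 and 0.000133). There 4 of the 22 were called, against 10.7% of all genes, and 8 with the block, against 3589 of 12755 genes. The median of the 22 there was -0.26 (0.09 over all genes). Of 16 cofactors, which include Sin3a, Sin3b and the histone deacetylases Hdac1 and Hdac2, 14 were tested. In LPS+ET against LPS 1 was called, against 12.7% of all genes, and 6 with the block, against 3403 of 12755 genes. The 1 called without the block was Ruvbl2, an ATPase of chromatin complexes (-0.62 ± 0.15 in LPS+ET against LPS, edgeR adjusted p = 0.00981). Leaving out any gradient of these groups but LPS+ET LUL16 gave 0 cofactors called. Between the etoposide groups edgeR called 0 regulators and 0 cofactors, where 5 and 2 had an unadjusted p under 0.05, DESeq2 called 1 of each, and the block called 3 and 1. Of all 12755 genes there, 2031 had an unadjusted p under 0.05, DESeq2 called 413 and the block called 811. Hdac2 differed there by -0.97 ± 0.20 (edgeR adjusted p = 0.0252), a value picked out after it was seen.

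**Figure D5:**
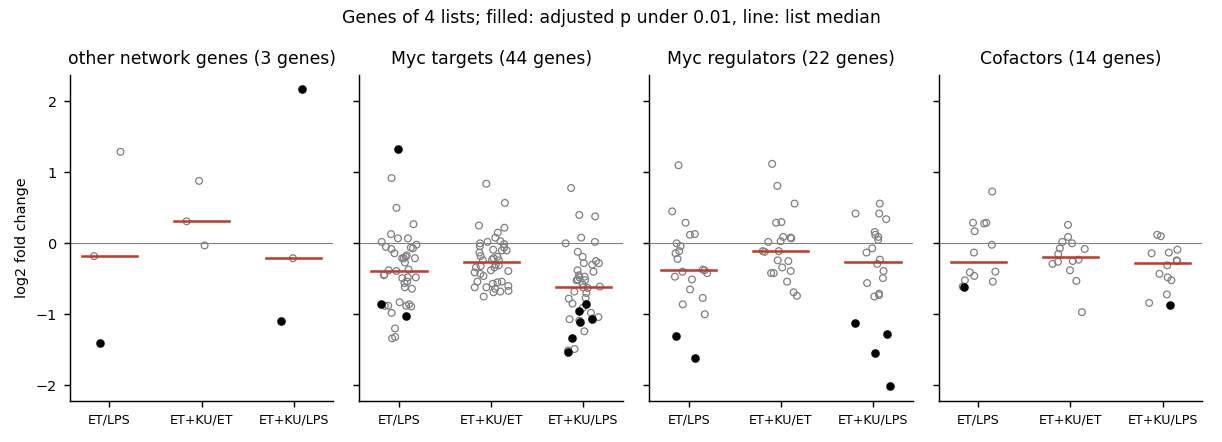
Log2 fold change in ribosome-associated level (vertical axis) of the tested genes of 4 lists in LPS+ET against LPS, LPS+ET+KU against LPS+ET and LPS+ET+KU against LPS; each point is a gene, filled where the edgeR adjusted p is under 0.01, and the bar is the list median. The median of the Myc targets is -0.38, -0.27 and -0.62 in the 3 comparisons.

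Genes whose level followed Myc most closely over the 12 gradients were sought among 7412 genes with a mean of 10 CPM or more. The highest Pearson r on log2 CPM were those of Fgd2 (0.97), Zeb2 (0.969), Dctd (0.949), Gm5423 (0.947) and Mfng (0.947). Among members, r to Myc was 0.802 for Max, 0.672 for Mxd3, 0.597 for Mnt, 0.331 for Mlx, -0.472 for Mxd4, -0.654 for Mxi1 and -0.805 for Mxd1. The points share 3 treatments and 4 pools, so r largely restates the treatment differences and carries no test. By LPS profile, the genes nearest to Myc among 2123 with a mean of 1000 counts or more were Ggnbp2, Hipk3, Atf7, Stt3b and Slc29a3, whose percents over 13 fractions differed from those of Myc by 17.3 to 19.3 points summed.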

How the data were processed

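PolyRibo-3′ RNA-seq counts were used as deposited by the authors: raw counts per gene in 157 libraries. By the study's methods, equal RNA concentrations per fraction were reverse transcribed from poly(A) tails, PCR duplicates were removed by random barcode bases, reads were mapped to GRCm38/mm10, and counts at selected polyadenylation sites were summed per gene. The submitters' processing notes name TopHat2 2.0.12, HTSeq and DESeq2 1.6.3. By the study's supplements, Tophat and HTSeq-count served the 3′ data, and by its methods DESeq2 was run on the raw counts to test fraction profiles. Since library totals do not measure the RNA of a fraction, profiles were taken after each fraction was scaled to its own total.

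Gradients were identified by treatment and pool tag. Of the columns, 79 matched 1 sample and 78 a treatment and fraction only. Table positions were 1 below GENCODE M21 for 71.8% of 19264 gene starts and were raised by 1. For the level, fractions 4 to 16 of a gradient were added up and tested with edgeR 4.0.16 (filterByExpr, TMM, quasi-likelihood, all 12 gradients), heavy shares with limma 3.58.1 (genes with a mean of 100 counts or more), and the interaction with edgeR on 104 libraries. Calls were made at an adjusted p under 0.01. DESeq2 1.42.0, no filter on low counts, limma with equal weight per fraction (1 CPM added), only the 8 gradients compared, other fraction bounds and each gradient left out were the alternatives. The interaction was also fitted with a term for each gradient. The offset of 0.5 CPM was chosen after seeing the data. The scripts were tested on simulated data.

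Pool tags pair the gradients: deviations from group means correlated at 0.288 to 0.79 in all 12 same-pool pairs, and at a median of -0.174 between pools. The tag was used as a replicate block in an alternative. Replicates differed beyond sampling noise (chi-square per degree of freedom 30.2 to 375 over 18 pairs). Intervals from replicates include both biological and counting error.

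The 8 members and the lists were chosen with earlier results of these data known. All members are described; of each list, up to 4 genes with the largest change are named among those called in LPS+ET against LPS, and the 5 genes most like Myc. Mycl and Hdac2 were named after their values were seen. Symbols of 3 list genes (Mycs, Igf2bp1, Ruvbl1) matched no row, and Mxd2 is another name of Mxi1. A further library of fraction 17 held 777 counts and was left out. A further marker of the lists is not reported here.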

Additional observations from a re-analysis of the deposited data

Results flagged for a closer look

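Among 48 groups of 4 gradients examined (level and heavy share of 8 members in 3 treatments), 1 value stood apart from the other 3 of its group by Dixon's test at the 95% level. This was the heavy polysome share of Mnt in LPS gradient LUL15, 58.5%, against 71.4 to 73.6% in the other LPS gradients, with a gap of 0.853 of the range. About 1 in 20 groups passes this limit when nothing differs. The fraction 4 library of that gradient held 42937 counts, and Mnt had 205 counts in the whole gradient. Its cause was not tested.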

How the results depend on the processing

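The calls of Mxd1 in both comparisons with LPS, and of Mxi1 and Mxd3 in LPS+ET+KU against LPS, held in every alternative run. The number of members called by level in LPS+ET against LPS was 4, and 6 with the replicate block, 5 in DESeq2 and 1 with equal weight per fraction. Over all genes these settings called 1618, 3403, 2344 and 1085 in the same order. The number of members ranged from 2 to 4 with single gradients left out. In LPS+ET+KU against LPS+ET it was 0, and 1 (Mxi1) with the replicate block or DESeq2 (811 and 413 of all genes), and from 0 to 1 with gradients left out. The pool block changed no other call of a member by level than those of Mxi1, Mlx and Max given above. By class, the block called 4 members in monosomes and 4 in heavy polysomes in LPS+ET against LPS, 1 in monosomes and 1 in light polysomes in LPS+ET+KU against LPS+ET, and 4 in monosomes and 5 in light polysomes in LPS+ET+KU against LPS. The calls over all genes by class are not given for the block or for the fits with a gradient left out. The counts here and in the next sentence therefore have no share beside them and are not read as a result about the members. With gradients left out, class counts ran from 0 to 2 (monosomes), 1 to 4 (light) and 0 to 2 (heavy) in LPS+ET against LPS, from 0 to 1 (heavy) in LPS+ET+KU against LPS+ET, and from 1 to 3 (monosomes) and 2 to 3 (heavy) in LPS+ET+KU against LPS.

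The lists depended more on the setting. The calls over all genes also moved with it and are given at the end of this section. In LPS+ET against LPS, Myc targets called were 3, and 16 with the replicate block, 7 in DESeq2, 5 with only the gradients compared and 1 to 4 with gradients left out. Regulators called were 2, and 7 with the block and 5 in DESeq2. Cofactors called were 1, and 6 with the block, 2 in DESeq2, 0 without the filter, with equal weights or with only the gradients compared, and 0 to 1 with gradients left out. In LPS+ET+KU against LPS+ET, the block called 5 targets, 3 regulators and 1 cofactor, and DESeq2 called 1 of each. In LPS+ET+KU against LPS, targets called were 6, and 22 with the block, 12 in DESeq2 and 3 to 6 with gradients left out. Regulators were 4, and 8 with the block and 2 with equal weights. Cofactors were 1, and 4 with the block and 0 with equal weights. Other network genes were 2, 0 with equal weights and 1 to 2 with gradients left out.

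The differences that changed sign had passed no test. Between the etoposide groups, the level of Myc was -0.131 with equal weights and -0.252 to 0.274 with gradients left out, and that of Mxd4 -0.035 and -0.115 to 0.15. The heavy share of Myc there was -0.402 on counts as deposited, -0.029 with 0.5 CPM added after scaling and -0.108 to 0.306 with gradients left out, and that of Mnt was -0.156 on counts as deposited. Against LPS, the heavy share of Myc ran from -0.321 to 0.062 in LPS+ET and from -0.188 to 0.075 in LPS+ET+KU with gradients left out, and was 0.068 with heavy polysomes as fractions 12 to 16. That of Mnt in LPS+ET+KU ran from -0.1 to 0.12. The causes were not tested. Members had 31 to 3770 counts per gradient, and 12 libraries held under 100000.

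LPS+ET against LPS had 1618 calls over all genes, and 3403 with the replicate block, 2344 in DESeq2, 1085 with equal weights and 1652 with only the gradients compared. For LPS+ET+KU against LPS the 1361 called split into 797 higher and 564 lower. The block called 3589 there, DESeq2 2319, and equal weights 875, of which 642 were higher and 233 lower. Between the etoposide groups 58 were called, 28 higher and 30 lower, against 811 with the block, 413 in DESeq2 (156 and 257), 21 with equal weights (14 and 7) and 0 with only the gradients compared. Without the filter the median log2 fold change of all genes in LPS+ET+KU against LPS was 0.235, against 0.094. Heavy shares called were 12, 0 and 113 in the order LPS+ET against LPS, between the etoposide groups and LPS+ET+KU against LPS, 29, 0 and 72 with 0.5 CPM added after scaling, 15, 0 and 175 with the block, 5, 0 and 57 with fractions 12 to 16, and 0 in each on counts as deposited.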

Other observations

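The library of fraction 17 had 0 counts for each of the 8 members among its 777, so it adds nothing about them.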
